A study of Mus musculus with 2 samples.

Results

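Antigen presentation by MHC class I was followed through 10 genes, all of which had a row in the deposited tables of 19059 genes. The genes were chosen by symbol and not by any measured value. They were B2m, H2-K1, H2-D1, Tap1, Tap2, Tapbp, Psmb8, Psmb9, Psmb10 and Nlrc5. The samples were 2 single-cell RNA libraries from the hippocampus of aged C57BL/6 mice. The study used mice of both sexes, without stating the sexes behind each library. The mice were 21 months old when the diets began. The control library came from mice on standard chow and the tomatidine library from mice fed chow with 0.05% tomatidine, a plant steroidal alkaloid, for 3 months. Each library pooled the hippocampi of 4 mice, per a figure legend of the study. Each group was therefore 1 sample, the spread between animals could not be measured, and no test between diets was possible. Intervals in brackets are 95% exact intervals for counting error only.

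MHC class I shows peptides from inside the cell to CD8 T cells. Proteasomes cut proteins into peptides, and cells exposed to interferon swap the catalytic proteasome subunits for the immunoproteasome subunits Psmb8, Psmb9 and Psmb10. The Tap1-Tap2 transporter carries peptides into the endoplasmic reticulum, where tapasin (Tapbp) holds empty class I molecules near the transporter. A finished molecule joins a heavy chain, here H2-K1 or H2-D1, to beta-2 microglobulin (B2m). Nlrc5 is the transactivator that switches many of these genes on together. In brain, vessels and microglia are known to carry class I readily, and neurons very little.

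After filtering, 15115 control and 14502 tomatidine cells were kept, with 7077 and 7408 UMIs (counted RNA molecules) in the median cell. The probe-based kit counted only molecules bound by gene-specific probes, and the number of probes per gene was not in the files. Levels are therefore compared between cells and not between genes, in UMIs per 1000000 UMIs of the class (CPM). Clusters were named "-like" from marker genes, with the 10 genes left out of the clustering, giving 14 named classes. In the 3 classes that the results turn on, all markers with a row were at least 2-fold above the rest of the library in both libraries: 9 of 9 for endothelial-like, 9 of 9 for microglia-like and 10 of 10 for oligodendrocyte-like cells. The same markers named the clusters, so these counts describe the classes and do not test their names. The counts were 8 of 10 for excitatory neuron-like, 7 of 8 for thalamic or other subcortical neuron-like and, in tomatidine, 8 of 10 for mural-like cells. The libraries shared 292 cell barcodes, of which 262 were kept in both. Fewer RNA molecules per cell and a different mix of cells inside a class cannot be told apart from these sums.

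Each of the 10 genes had its highest level in the T or NK cell-like class in both libraries, from 64 control and 34 tomatidine cells. B2m stood there at 860 CPM (740 to 994) in control and 1049 CPM (871 to 1252) in tomatidine. It stood at 722 and 627 CPM in microglia-like cells, the resident macrophages, and at 659 and 442 CPM in the border macrophage-like cluster. The border macrophage-like cluster was a shallow mixture, with 1601 UMIs in its median control cell and microglia markers at a median of 33.9% of their microglia-like level. Endothelial-like cells held 250 and 324 CPM, above fibroblast-like cells with 114 and 127 CPM. In control the intervals of T or NK cell-like and microglia-like cells overlapped, as did those of microglia-like and border macrophage-like cells. Ependymal-like (82.8 CPM), oligodendrocyte-like (81.8 CPM), oligodendrocyte precursor-like (74.9 CPM) and choroid plexus-like cells (74.5 CPM) did not differ beyond their intervals. Neurons were lowest in both libraries, with B2m at 21.9 and 16.9 CPM in interneuron-like, 17.8 and 19.4 CPM in excitatory neuron-like and 13.4 and 12.6 CPM in the thalamic or other subcortical neuron-like cells.

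H2-K1, a classical heavy chain, reached 2108 CPM (1918 to 2312) in control and 2020 CPM (1770 to 2296) in tomatidine T or NK cell-like cells, against 4.56 and 4.70 CPM in excitatory neuron-like cells. Nlrc5 had the steepest step of the 10 genes between these 2 classes, from 0.354 and 0.288 CPM in excitatory neuron-like to 388 and 473 CPM in T or NK cell-like cells. In microglia-like cells it stood at 37.1 and 38.5 CPM. The level of Psmb10 in excitatory neuron-like cells was 29.5% of that in microglia-like cells in control and 42.8% in tomatidine. For the other 9 genes that share ran from 0.748% to 9.60% over both libraries. As a gauge of free RNA, the 9 microglia markers stood in excitatory neuron-like cells at a median of 0.174% (control) and 0.230% (tomatidine) of their microglia-like level. The 9 endothelial markers stood there at medians of 0.118% and 0.137% of their own class, and the 10 oligodendrocyte markers at 1.14% and 1.26%. The neuronal share of all 10 genes was above the microglia marker median in both libraries. The shares of H2-K1, Psmb8, Psmb9 and Nlrc5 were below the oligodendrocyte marker median in control, as was that of Nlrc5 in tomatidine.

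**Figure D1:**
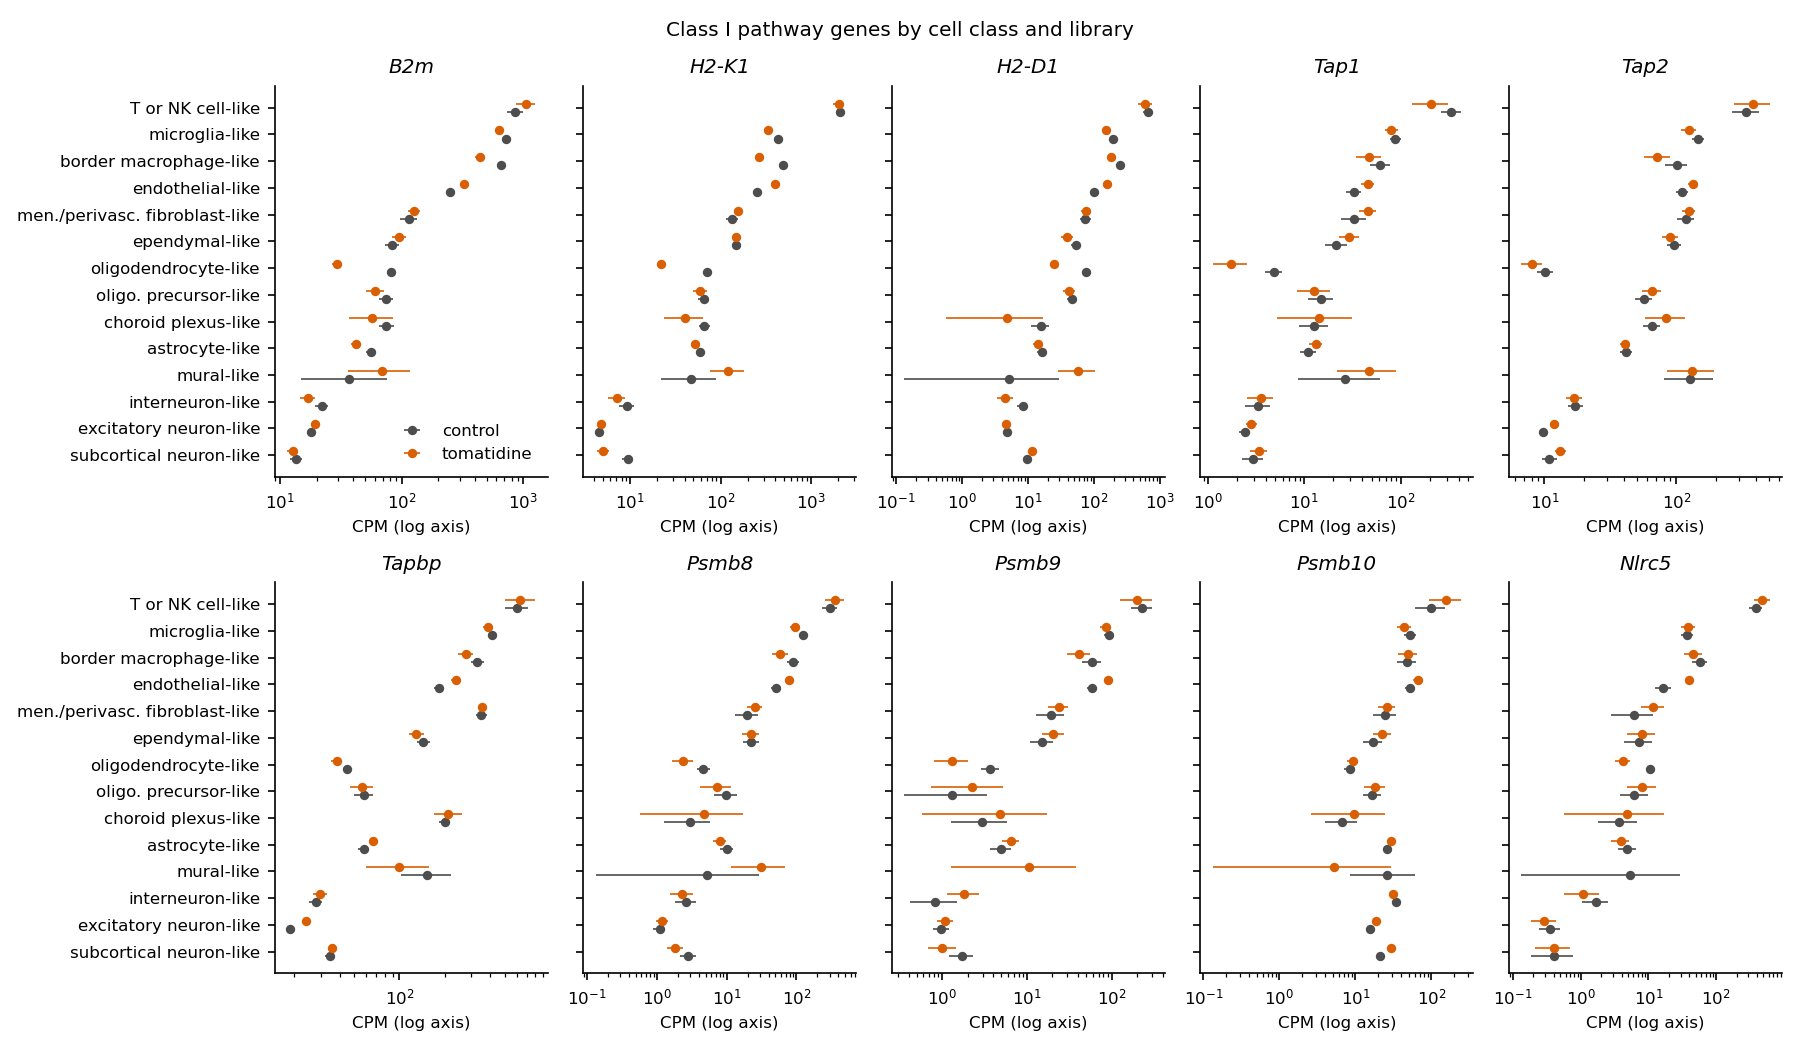
Level of each of the 10 genes (CPM, log axis) in 14 cell classes, ordered by control B2m. Dots are the control (grey) and tomatidine (orange) libraries, bars are 95% Poisson intervals for counting error, and sums of 0 UMIs are not drawn. T or NK cell-like cells are highest in every panel, and oligodendrocyte-like cells show the widest gap between libraries for B2m, from 81.8 to 29.6 CPM.

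Over 28 profiles (14 classes in 2 libraries), genes were ranked by Pearson correlation with the mean standardised profile of the 10 genes, on log2(CPM + 1). Of 14070 genes, the nearest were the class I chain H2-Q6 (r = 0.98), the retroviral restriction factor Apobec3 (r = 0.98), Cd274 (r = 0.97), which encodes PD-L1, the class I chain H2-Q4 (r = 0.95) and the apoptosis inhibitor Birc3 (r = 0.95). These profiles share libraries and include the T or NK cell-like class, where all are high, so the r values are descriptions. Within the set, Psmb8 and Psmb9, subunits of 1 particle, were each other's nearest (r = 0.96), as were the transporter chains Tap1 and Tap2 (r = 0.95). Psmb10 was the member least like the others, with r = 0.64 to their mean. Probes for the heavy chains may not separate them fully, since the longest reading frames of H2-K1 and H2-D1 were 91.5% identical over 1080 aligned bases, and those of H2-K1 and H2-Q6 88.4% over 981.

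Of the 10 genes, 7 lie on chromosome 17 between 33915899 and 35267499 of the GRCm38 build, in and beside the mouse MHC (GENCODE vM21 annotation). H2-K1 (chr17:33996017-34000347, minus strand) and H2-D1 (chr17:35262730-35267499) sit far apart there. Psmb9 (chr17:34181987-34187764, minus strand), Tap1 (chr17:34187553-34197225), Psmb8 (chr17:34197721-34201454) and Tap2 (chr17:34203527-34216321) form 1 block, and Tapbp is at chr17:33915899-33929292. B2m is at chr2:122147686-122153083, and Psmb10 (chr8:105935735-105938444) and Nlrc5 (chr8:94434356-94527272) share chromosome 8. RefSeq (GRCm38.p6) gave promoter sequence for 8 of the 10 genes, all but Tap2 and Nlrc5. The RefSeq starts, which the windows follow, differ from the GENCODE gene bounds above for 7 of the 8 genes. The RefSeq start lay 364 bases inside the GENCODE gene for H2-D1, 434 for Psmb9, 474 for Psmb8 and 3579 for Tapbp, so that the windows of these 4 genes lie wholly inside the gene, and it lay 52 bases or fewer inside for the others. All bases of 5 windows (H2-D1, Tap1, Tapbp, Psmb8 and Psmb9) lie in exons of a GENCODE gene. The RefSeq starts of Tap1 and Psmb9 are divergent, with 225 bases between them, so that both windows read the same stretch, whereas their GENCODE bounds overlap.

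The promoters of the 3 genes of the class I molecule itself are shown because these genes carried the largest UMI sums behind the difference in oligodendrocyte-like cells, and because they share motifs that the other 5 windows lacked. The first 2 sequences are the windows just upstream of the RefSeq start, the B2m one of 249 bases at chr2:122147437-122147685 (plus strand) and the H2-K1 one of 250 bases at chr17:34000348-34000597 (minus strand). Capitals mark matches to the interferon-stimulated response element (ISRE), searched as GAAA or GAA followed by any 2 bases and GAAA, and to the NF-kB consensus in either of its usual forms, on both strands. The last 2 sequences are the stretch that holds both motifs in H2-K1 (chr17:34000429-34000458, minus strand) and in H2-D1 (chr17:35262923-35262952, plus strand). The H2-D1 stretch lies in exon sequence of the gene in GENCODE.
B2m promoter: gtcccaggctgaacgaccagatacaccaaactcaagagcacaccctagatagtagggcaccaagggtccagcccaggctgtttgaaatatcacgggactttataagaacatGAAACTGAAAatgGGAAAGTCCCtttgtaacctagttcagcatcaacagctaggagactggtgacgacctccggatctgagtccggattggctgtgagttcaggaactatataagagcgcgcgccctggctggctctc
H2-K1 promoter: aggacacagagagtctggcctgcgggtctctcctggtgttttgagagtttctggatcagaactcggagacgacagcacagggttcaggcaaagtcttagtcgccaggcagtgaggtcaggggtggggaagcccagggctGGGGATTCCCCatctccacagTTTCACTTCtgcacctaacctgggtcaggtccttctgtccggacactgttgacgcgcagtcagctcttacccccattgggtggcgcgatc
H2-K1 stretch: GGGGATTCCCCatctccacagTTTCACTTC
H2-D1 stretch: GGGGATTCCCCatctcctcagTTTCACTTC
The 2 stretches of 30 bases differed at 1 position, A18T, counted from 1 at the 5′ end with the H2-K1 base first.

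An ISRE at either spacing was found in the 250 bases before the RefSeq start of 3 of the 8 genes (B2m, H2-K1 and H2-D1) and in 8.91% of 27025 promoters. The NF-kB consensus was found in the same 3 genes and in 3.75% of promoters. In B2m the 2 matches lay 3 bases apart, and in H2-K1 and H2-D1 the NF-kB letters also matched at a second, overlapping position. The core of the cyclic AMP response element, TGACG, was in 5 of the 8 (17.9% of promoters) and CCAAT in 6 of the 8 (34.5% of promoters). Tap1 and Psmb9 were each counted for the same TGACG and CCAAT sites, since their windows read the same stretch. H2-K1 and H2-D1 were each counted for an almost identical stretch. The 8 windows are therefore not separate promoters, and the counts are not directly comparable with the shares. The GAS element, TTCNNNGAA, was in Psmb8 alone (7.18% of promoters). These are matches of letters in short windows, chosen with these sequences in view, and no binding was measured.

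In oligodendrocyte-like cells, the myelin-forming glia, 9 of the 10 genes were lower with tomatidine and 7 were at least 1.3-fold lower, against 3.31% of the 13016 genes with at least 20 UMIs there. None was at least 1.3-fold higher (12.9% of genes). The median log2 ratio of tomatidine over control was −1.40 for the 10 genes and 0.06 for all genes. The sums came from 3077 control and 2386 tomatidine cells. B2m had 1612 UMIs (81.8 CPM, 77.8 to 85.9) in control and 447 (29.6 CPM, 26.9 to 32.4) in tomatidine, a log2 ratio of −1.47 (−1.62 to −1.32). H2-K1 had 1395 and 330 UMIs (70.8 and 21.8 CPM), a log2 ratio of −1.70 (−1.88 to −1.52). H2-D1 had 1513 and 373 UMIs (76.8 and 24.7 CPM), a log2 ratio of −1.64 (−1.80 to −1.47). The components of the class I molecule thus stood at 0.361 (B2m), 0.308 (H2-K1) and 0.321 (H2-D1) times their control level.

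Among the genes around the molecule, the regulator, 2 proteasome subunits and 1 transporter chain passed 1.3-fold and the others did not. Nlrc5, their transactivator, stood at 208 against 63 UMIs (log2 ratio −1.34, −1.77 to −0.93). The inducible subunit Psmb9 stood at 73 against 20 UMIs (−1.49, −2.28 to −0.76), Psmb8 at 92 against 36 UMIs (−0.97, −1.57 to −0.40) and the transporter chain Tap1 at 95 against 26 UMIs (−1.49, −2.17 to −0.85). Its partner Tap2 did not pass 1.3-fold (−0.32, −0.66 to 0.01), nor did the loading chaperone Tapbp (−0.24, −0.39 to −0.09). Psmb10, the remaining immunoproteasome subunit, was at 8.37 and 9.19 CPM (0.13, −0.20 to 0.47). Both large oligodendrocyte-like clusters showed the lower class I genes: B2m had a log2 ratio of −1.43 in the one and −1.51 in the other, and H2-K1 −1.64 and −1.73. Psmb8 had −1.38 (−2.23 to −0.60) and −0.33 (−1.27 to 0.56), with overlapping intervals. When cells were classed one by one by their markers, the log2 ratios of Tap1 and Psmb9 were −0.43 and −0.60.

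The class I UMIs of oligodendrocyte-like cells were concentrated in few cells. Summed over B2m, H2-K1 and H2-D1, the level was 229 CPM in control and 76.0 CPM in tomatidine (log2 ratio −1.59, −1.69 to −1.50). Of the cells, 54.6% in control and 71.3% in tomatidine had no such UMI, and the top 5% of cells held 46.4% and 41.0% of the UMIs. Over the 11 classes compared, the top 5% share ran from 21.9% (microglia-like) to 49.2% (border macrophage-like) in control. In tomatidine it ran from 19.3% (microglia-like) to the 41.0% of this class. At least 10 such UMIs were found in 91 of 3077 control cells (2.96%, 2.39 to 3.62) and in 3 of 2386 tomatidine cells (0.126%, 0.0259 to 0.367). The cells with fewer than 10 were also lower with tomatidine, at 156 CPM in control and 73.6 CPM in tomatidine (log2 ratio −1.09, −1.19 to −0.99). Median depth was similar between libraries, with 5331 and 4885 UMIs per cell. After each cell with at least 1500 UMIs was thinned to 1500 (58 control and 74 tomatidine cells left out), 10.1% and 4.0% of cells had a B2m UMI, against 26.7% and 13.8% unthinned. The same thinned share was 2.84% and 3.0% in excitatory neuron-like cells, whose median depth was 15541 and 14916 UMIs and whose unthinned shares were 27.0% and 28.3%.

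The 91 control cells held 35.0% of the class I UMIs of their class, and they were oligodendrocyte-like by their markers (69814 CPM of the 10 oligodendrocyte markers, against 62826 CPM in the other 2986 control cells). The 9 microglia markers summed to 147 CPM in them and 198 CPM in the others, against 34789 CPM in microglia-like cells. The 10 T or NK cell markers summed to 2.15 and 2.82 CPM, against 3613 CPM in T or NK cell-like cells. The cells were chosen by their class I UMIs, so the other genes are given as a description: Tap1 was at 66.7 against 1.76 CPM, Psmb9 at 37.6 against 2.02 CPM, Psmb8 at 39.8 against 2.93 CPM, Nlrc5 at 44.1 against 8.89 CPM and Igtp, an interferon-induced GTPase, at 129 against 6.87 CPM. The whole list of 29 interferon-induced genes, Igtp included, summed to 1011 against 424 CPM. The 91 cells were also deeper, with 8086 against 5251 UMIs in the median cell. Since 4 mice were pooled, the number of animals that gave the 91 cells is unknown.

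**Figure D2:**
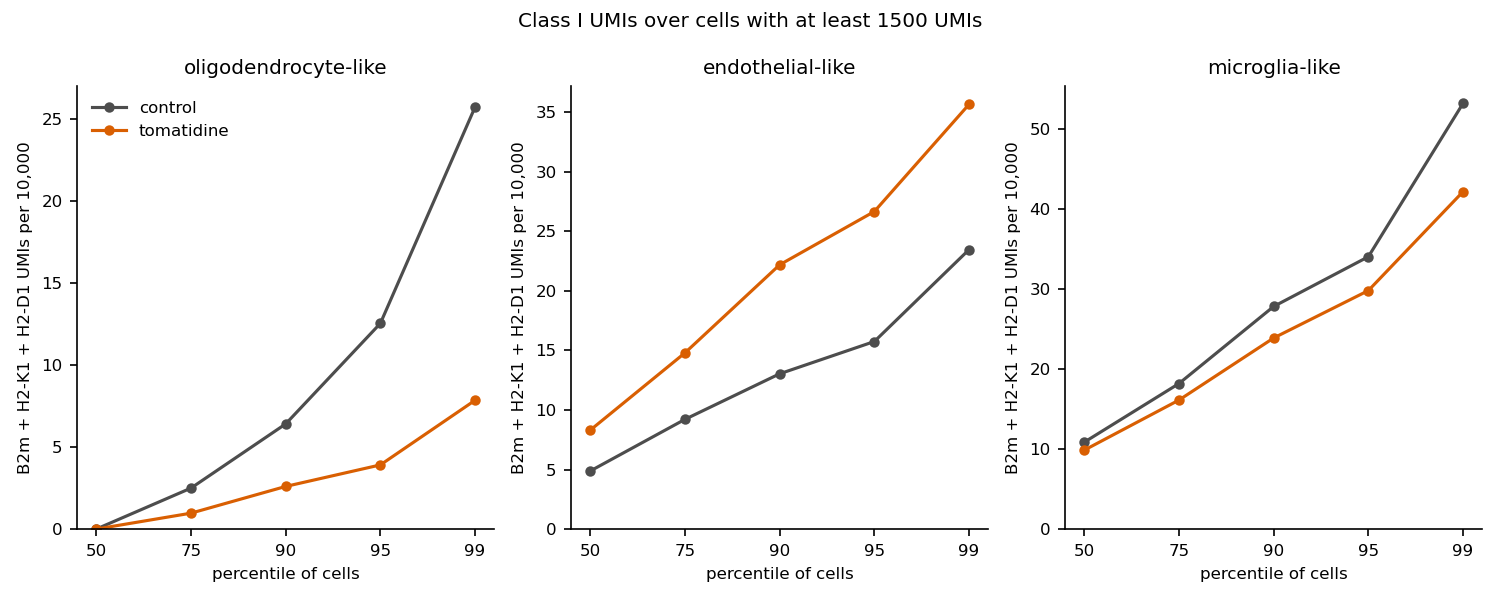
Summed UMIs of B2m, H2-K1 and H2-D1 per 10000 UMIs of a cell, at 5 percentiles of the cells with at least 1500 UMIs in 3 classes, for control (grey) and tomatidine (orange). In oligodendrocyte-like cells the medians are both 0 and the 99th percentiles are 25.7 and 7.85, whereas endothelial-like cells are higher with tomatidine at each percentile drawn.

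The oligodendrocytes known to accumulate in aged brain express Serpina3n, a serine protease inhibitor, and C4b, a complement component. A UMI of either was found in 90.2% (89.1 to 91.2) of control and 82.7% (81.2 to 84.2) of tomatidine oligodendrocyte-like cells. Control cells with one had H2-K1 at 74.7 CPM and those without at 24.9 CPM. With tomatidine the values were 22.4 and 18.2 CPM. Of the 10 genes, 7 were at least 1.3-fold higher in cells with a UMI than without in control (12.8% of genes) and 6 in tomatidine (14.0% of genes), though Tap1, Psmb8, Psmb9 and Nlrc5 had at most 3 UMIs each in the cells without. The cells with a UMI were also deeper, with 5419 against 4465 UMIs in the median control cell. Among cells with a UMI of either gene, the H2-K1 log2 ratio between diets was −1.74 (−1.93 to −1.56). Among cells without, it was −0.45 (−1.15 to 0.24), and B2m (−0.87, −1.52 to −0.23) and H2-D1 (−1.21, −1.99 to −0.46) were lower.

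Markers of other cells were also read in the oligodendrocyte-like class. The 10 astrocyte markers had the highest sum, 1368 CPM in control and 1543 CPM in tomatidine (9 higher, 1 lower, none at 0). The 10 mural markers, of the pericytes and muscle cells around vessels, summed to 24.3 and 33.7 CPM (8 higher, 2 lower, with Kcnj8 at 0 in control). The 9 microglia markers summed to 196 and 177 CPM (4 higher, 5 lower with tomatidine, none at 0) and the 9 endothelial markers to 22.7 and 25.1 CPM (6 higher, 3 lower). The 10 T or NK cell markers summed to 2.79 and 1.65 CPM (1 higher, 9 lower), with Cd5 at 0 in control and Cd3g and Cd8a at 0 in tomatidine. Their part in the result was not tested. The 4 Y-linked genes, read because the sexes behind each library were not stated, summed to 241 and 238 CPM. In cells with a Y-linked UMI the H2-K1 log2 ratio was −1.68. Such a UMI was found in 69.9% of control and 69.1% of tomatidine oligodendrocyte-like cells. In the deeper excitatory neuron-like cells the shares were 86.8% and 87.6%.

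Endothelial-like cells, which line the vessels, differed in the opposite direction. All 10 genes were higher with tomatidine, each with an interval above 0, and 6 were at least 1.3-fold higher, against 10.3% of 12567 genes. None was lower (8.79% of genes past the fold in that direction). The median log2 ratio was 0.55 for the 10 genes and 0.02 for all genes, over 307 control and 418 tomatidine cells. Nlrc5 had 58 UMIs (16.5 CPM, 12.5 to 21.3) in control and 157 (40.3 CPM, 34.3 to 47.1) in tomatidine, a log2 ratio of 1.29 (0.85 to 1.75). H2-K1 stood at 252 CPM (236 to 270) and 396 CPM (376 to 416), a log2 ratio of 0.65 (0.53 to 0.77). H2-D1 stood at 99.8 and 158 CPM (0.66, 0.47 to 0.85). The transactivator and both heavy chains were above control by more than counting error.

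The immunoproteasome subunits Psmb8 (50.6 and 77.6 CPM) and Psmb9 (58.8 and 90.2 CPM) had log2 ratios of 0.62 each, and Tap1 of 0.48 (0.14 to 0.84). B2m (0.38, 0.25 to 0.50), Tapbp (0.36, 0.22 to 0.51), Psmb10 (0.33, 0.05 to 0.61) and Tap2 (0.27, 0.08 to 0.47) were below 1.3-fold. The median cell with at least 1500 UMIs held 4.88 class I UMIs per 10000 in control and 8.30 in tomatidine, and the 90th percentile stood at 13 and 22.2.

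The shares of the vessel types differed between libraries, with overlapping intervals for each type. In control 78.5% of endothelial-like cells were capillary (73.5 to 83.0) and 10.4% venous (7.24 to 14.4), whereas with tomatidine 70.3% were capillary (65.7 to 74.7) and 16.0% venous (12.6 to 19.9). Arterial cells made up 3.26% in control (1.57 to 5.91) and 7.42% in tomatidine (5.09 to 10.4). Venous cells carried more H2-K1 than capillary cells in both libraries, with 537 against 226 CPM in control and 709 against 353 CPM in tomatidine. Of the 10 genes, 6 were at least 1.3-fold higher in venous than in capillary cells in control (23.2% of genes) and 8 in tomatidine (22.4% of genes). Psmb10 and Nlrc5 were at least 1.3-fold lower in venous cells in control (26.6% of genes), on 10 and 3 venous UMIs, and no gene was in tomatidine (29.7% of genes). In capillary cells alone, the log2 ratios of tomatidine over control were 0.64 for H2-K1 (0.51 to 0.78), 0.66 for H2-D1 and 1.12 for Nlrc5 (0.64 to 1.62), close to the values over the whole class for the heavy chains. In venous cells B2m was at 397 and 378 CPM (−0.07, −0.44 to 0.31) and H2-K1 had a log2 ratio of 0.40 (0.11 to 0.70). In arterial cells, of which control had 10 and tomatidine 31, each of the 10 intervals included 0. The log2 ratio was below 0 there for H2-D1 (−0.51, −1.34 to 0.41, on 15 and 60 UMIs) and Tap1 (−0.42, −2.04 to 1.61, on 4 and 17 UMIs). Endothelial-like cells were shallower with tomatidine (6112 and 4540 UMIs in the median cell), and markers of other cells shifted with them. The 10 mural markers summed to 6383 CPM in control and 7887 CPM in tomatidine (8 higher, 2 lower, none at 0). Mural-like cells themselves held H2-K1 at 47.3 and 121 CPM. The 10 astrocyte markers summed to 7738 and 5636 CPM (10 lower), and the 10 oligodendrocyte markers to 4094 and 3439 CPM (1 higher, 9 lower). The 9 microglia markers summed to 412 and 392 CPM and the 10 T or NK cell markers to 9.95 and 6.16 CPM (Cd5 at 0 in control, Cd3e, Cd3g and Nkg7 at 0 in tomatidine). The 4 Y-linked genes summed to 196 and 221 CPM. The part of these shifts in the result was not tested. The H2-K1 log2 ratio was 0.57 in cells with a Y-linked UMI.

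**Figure D3:**
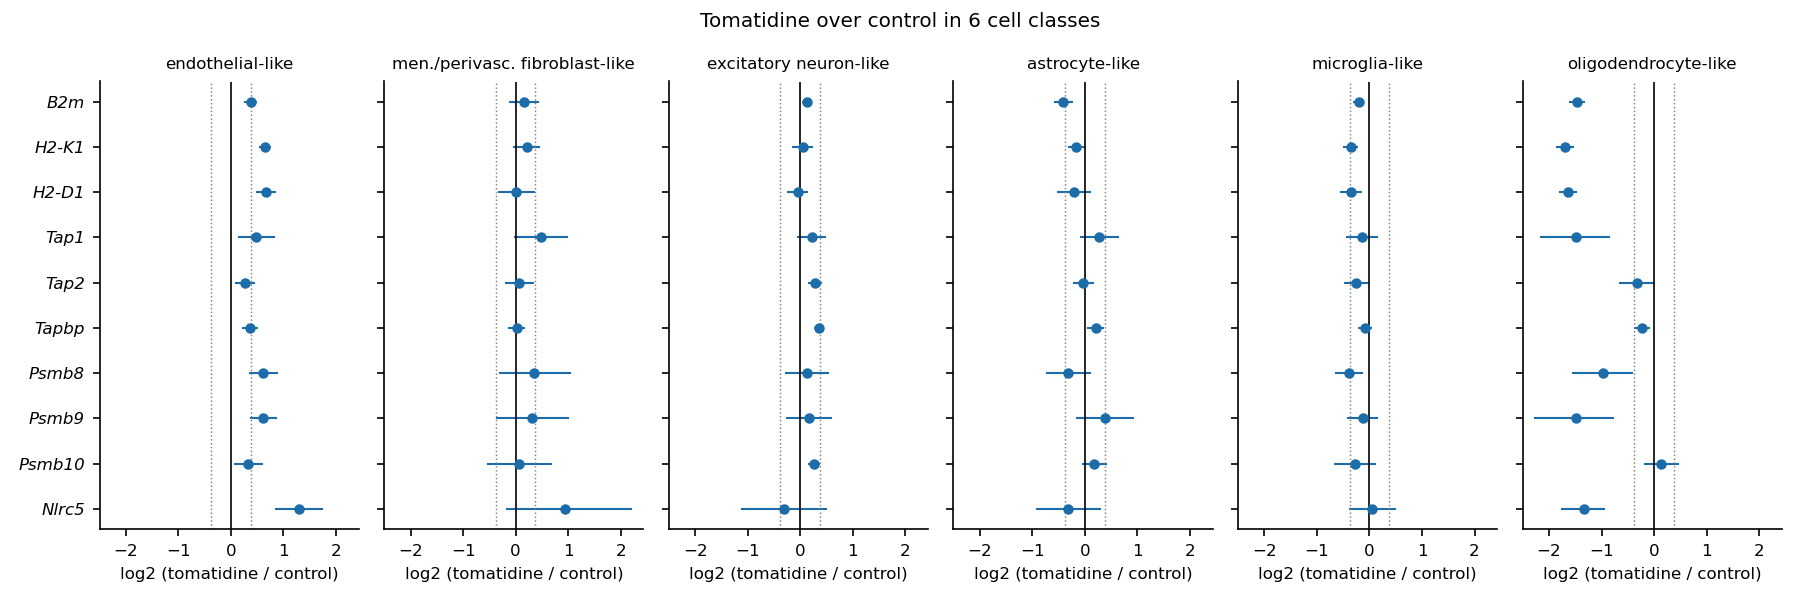
Log2 ratio of tomatidine over control for the 10 genes in 6 cell classes, with 95% counting intervals. The solid line is no difference and the dotted lines are 1.3-fold. All 10 genes sit above 0 in endothelial-like cells, and 9 of 10 sit below 0 in oligodendrocyte-like and in microglia-like cells.

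In microglia-like cells 9 of the 10 genes were lower with tomatidine, but 1, Psmb8, passed 1.3-fold, against 7.05% of 11674 genes, and none passed it higher (12% of genes). The median log2 ratio was −0.23, against 0.03 for all genes, from 568 control and 496 tomatidine cells. H2-K1 stood at 434 and 338 CPM (log2 ratio −0.36, −0.50 to −0.22), B2m at 722 and 627 CPM (−0.20, −0.31 to −0.10) and Psmb8 at 124 and 94.3 CPM (−0.39, −0.65 to −0.13). Nlrc5 was at 37.1 and 38.5 CPM (0.05, −0.40 to 0.50). The MHC class II genes, which present peptides to CD4 T cells, had a wider gap there: 5 of 6 passed 1.3-fold lower, with a median log2 ratio of −2.27. Markers of other cells shifted in this class too. The 10 mural markers summed to 32.8 CPM in control and 105 CPM in tomatidine (8 higher, 2 lower, Kcnj8 at 0 in both), the 10 oligodendrocyte markers to 2882 and 2274 CPM (1 higher, 9 lower) and the 10 astrocyte markers to 3160 and 3540 CPM (8 higher, 2 lower). Their part in the result was not tested.

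Activated microglia were marked by a UMI of Cst7, a cathepsin inhibitor, or Itgax, an integrin, in 25.9% (22.3 to 29.7) of control and 22% (18.4 to 25.9) of tomatidine microglia-like cells. These cells had B2m at 1022 against 610 CPM in the other control cells, and at 893 against 545 CPM with tomatidine. In control 6 of the 10 genes were at least 1.3-fold higher in them (11.5% of genes), and in tomatidine 5 (13.8% of genes). The heavy chains, B2m, Psmb8 and Nlrc5 did so in both libraries. Psmb10 was not among them in either library (log2 ratios −0.30 and −0.52).

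Fibroblast-like cells had all 10 ratios above 0, with 2 past 1.3-fold higher (10.5% of genes) and each interval including 0. The border macrophage-like cluster had 7 genes at least 1.3-fold lower (11.8% of genes), led by H2-K1 (489 and 270 CPM; log2 ratio −0.86, −1.07 to −0.65), but the count was 2 or 3 when cells were weighted equally, clustered at resolution 1.5, clustered without integration or filtered on both sets of thresholds. Excitatory neuron-like cells had no gene past 1.3-fold in either direction (11.1% of genes higher, 2.12% lower). Their largest ratio was that of Tapbp, at 18.8 and 23.9 CPM (0.35, 0.25 to 0.44). In astrocyte-like cells B2m was at 55.9 and 42.1 CPM (−0.41, −0.59 to −0.23), the 1 gene at least 1.3-fold lower (5.24% of genes), and Psmb9 was the 1 gene past the fold in the other direction (5.67% of genes).

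Interneuron-like cells had 2 genes at least 1.3-fold lower (3.55% of genes) and 1 higher (9.56% of genes), and the latter, Psmb9, rested on 11 and 22 UMIs. H2-D1 had 112 and 55 UMIs there (−0.90, −1.39 to −0.42). Among the thalamic or other subcortical neuron-like cells, Psmb10 was 1.41-fold higher (15.7% of genes past the fold) and H2-K1, Psmb8 and Psmb9 were lower (11.8% of genes). H2-K1 had 209 and 149 UMIs there (9.38 and 5.0 CPM, log2 ratio −0.91, −1.22 to −0.60). Oligodendrocyte precursor-like cells had 1 of 9 tested genes in each direction (10.8% of genes higher, 8.92% lower), with B2m at 74.9 and 60.6 CPM (−0.30, −0.62 to 0.01). Ependymal-like cells had 3 higher (8.65% of genes) and 1 lower (18.4% of genes). Over all kept cells, where the opposite ratios of the classes are summed, 1 gene, H2-D1, passed 1.3-fold lower (5.25% of genes) and none higher (8.89% of genes).

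The immunoproteasome was also read against the constitutive subunit that each inducible subunit replaces, which removes the scaling to all UMIs. In endothelial-like cells there were 28.1 (23.7 to 33.3) Psmb8 UMIs per 100 of Psmb5 in control and 43.6 (37.9 to 50) in tomatidine. Psmb9 per 100 of Psmb6 stood at 52.4 (44.1 to 62.2) and 77.1 (66.9 to 88.9). Vessel cells of the tomatidine library thus held more inducible subunit RNA per constitutive one. In oligodendrocyte-like cells Psmb9 per 100 of Psmb6 stood at 3.51 (2.74 to 4.44) and 1.18 (0.718 to 1.82), while Psmb6 itself was at 105 and 112 CPM.

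Psmb10 was also higher per constitutive subunit in endothelial-like cells (log2 ratio 0.40, 0.01 to 0.79), but it was not lower in oligodendrocyte-like cells. Per 100 of Psmb7 it stood at 10.9 and 13.1 in oligodendrocyte-like cells, 79.3 and 104 in endothelial-like cells and 19.4 (18.3 to 20.5) and 26.8 (25.3 to 28.4) in excitatory neuron-like cells. Over all kept cells it stood at 24.5 (23.6 to 25.3) and 34.2 (33.1 to 35.3), higher with tomatidine by more than counting error. Part of this gap lay in Psmb7, with 16992 of 206744516 UMIs in control and 14578 of 200551962 in tomatidine. By CPM no pathway gene had a log2 ratio above 0.31 over all kept cells, against 0.48 for Psmb10 per Psmb7. For excitatory neuron-like cells, Psmb10 had 0.26 by CPM and 0.47 per Psmb7. Of the 11 classes compared, the CPM ratio of Psmb10 was above 0 in 9, with an interval above 0 in 3. The median ratio of all genes was also above 0 in most of these classes. In border macrophage-like cells both log2 ratios were 0.052. Psmb7 itself stood at 77.1 and 70.0 CPM in oligodendrocyte-like cells. In microglia-like cells Psmb10 was at 93.0 and 80.4 per 100 of Psmb7, with overlapping intervals. Psmb8, the gene past 1.3-fold lower by CPM there, was at 83.0 and 70.3 per 100 of Psmb5 (log2 ratio −0.24, −0.59 to 0.11).

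**Figure D4:**
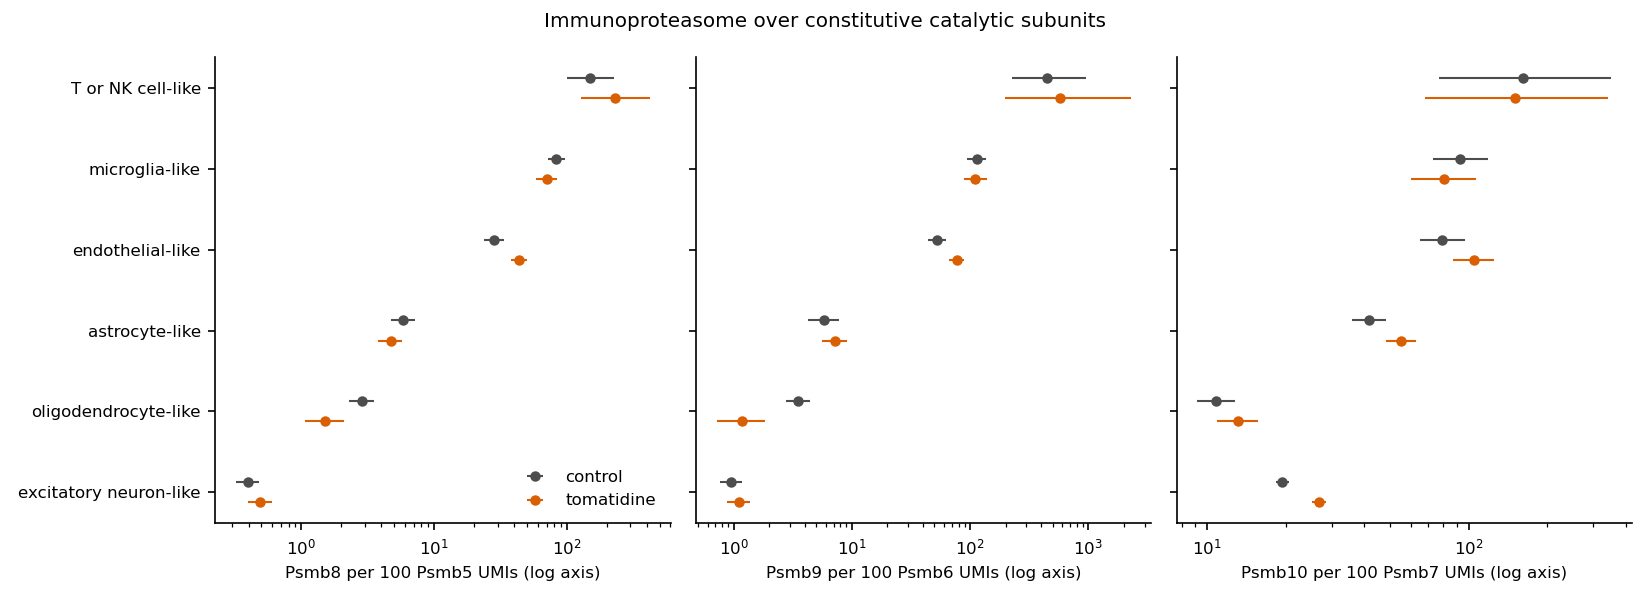
UMIs of an immunoproteasome subunit per 100 UMIs of the constitutive subunit it replaces (log axes) in 6 cell classes, control in grey and tomatidine in orange, with 95% counting intervals. Psmb8 and Psmb9 are higher with tomatidine in endothelial-like and lower in oligodendrocyte-like cells, and the values of Psmb10 per 100 of Psmb7 are higher in both.

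Other genes around the pathway were read from lists. In endothelial-like cells, where 10.3% of all genes tested were at least 1.3-fold higher and 8.79% lower, 8 of 8 tested other class I and class I-like chains were higher, 5 of them past 1.3-fold, with a median log2 ratio of 0.59. H2-Q7, a nonclassical chain, stood at 53.4 and 136 CPM (1.35). The general machinery did not share this: none of 12 genes for loading and trimming in the endoplasmic reticulum passed 1.3-fold (median −0.01), and of 7 proteasome activator and constitutive genes 1 did. That gene was Psme1, a subunit of the interferon-induced activator PA28, at 106 and 148 CPM (0.48). Of 29 interferon-induced genes outside the pathway, 15 were at least 1.3-fold higher and none lower (median 0.38), and 3 of 18 transcriptional regulators were higher past the fold. Among the regulators Irf7, which drives interferon responses, had the highest ratio (55.1 and 94.8 CPM, 0.78). Of 7 interferon receptors and kinases, 1 was past 1.3-fold higher, and Ifngr2 had the lowest ratio (−0.36). Class II genes were split, with 1 higher and 3 lower of 5.

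In oligodendrocyte-like cells, where 3.31% of all genes tested were at least 1.3-fold lower and 12.9% higher, 6 of 8 tested other class I chains were at least 1.3-fold lower (median −0.97), among them H2-Q6, at 18.6 and 6.35 CPM (−1.55), while Fcgrt, the Fc receptor of the neonate type, was higher at 3.4 and 4.89 CPM (0.53). Of 12 loading and trimming genes 1 was lower past the fold, the aminopeptidase Erap1 that trims peptides for class I (12.9 and 7.60 CPM, −0.77), and none of 7 proteasome genes was. Interferon-induced genes outside the pathway were lower past the fold in 10 of 26 and higher in 1, with a median of −0.28. Igtp had the lowest ratio of those with at least 100 UMIs (12.6 and 3.77 CPM, −1.74), and Ifit3 the highest (5.07 and 5.29 CPM, 0.06). Of 17 transcriptional regulators 1 was higher and 2 were lower past the fold, and Irf1, an activator of class I genes, had the lowest ratio (9.29 and 6.22 CPM, −0.58). Interferon receptors and kinases had no gene past the fold. Class II genes were at least 1.3-fold lower in 4 of 5.

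**Figure D5:**
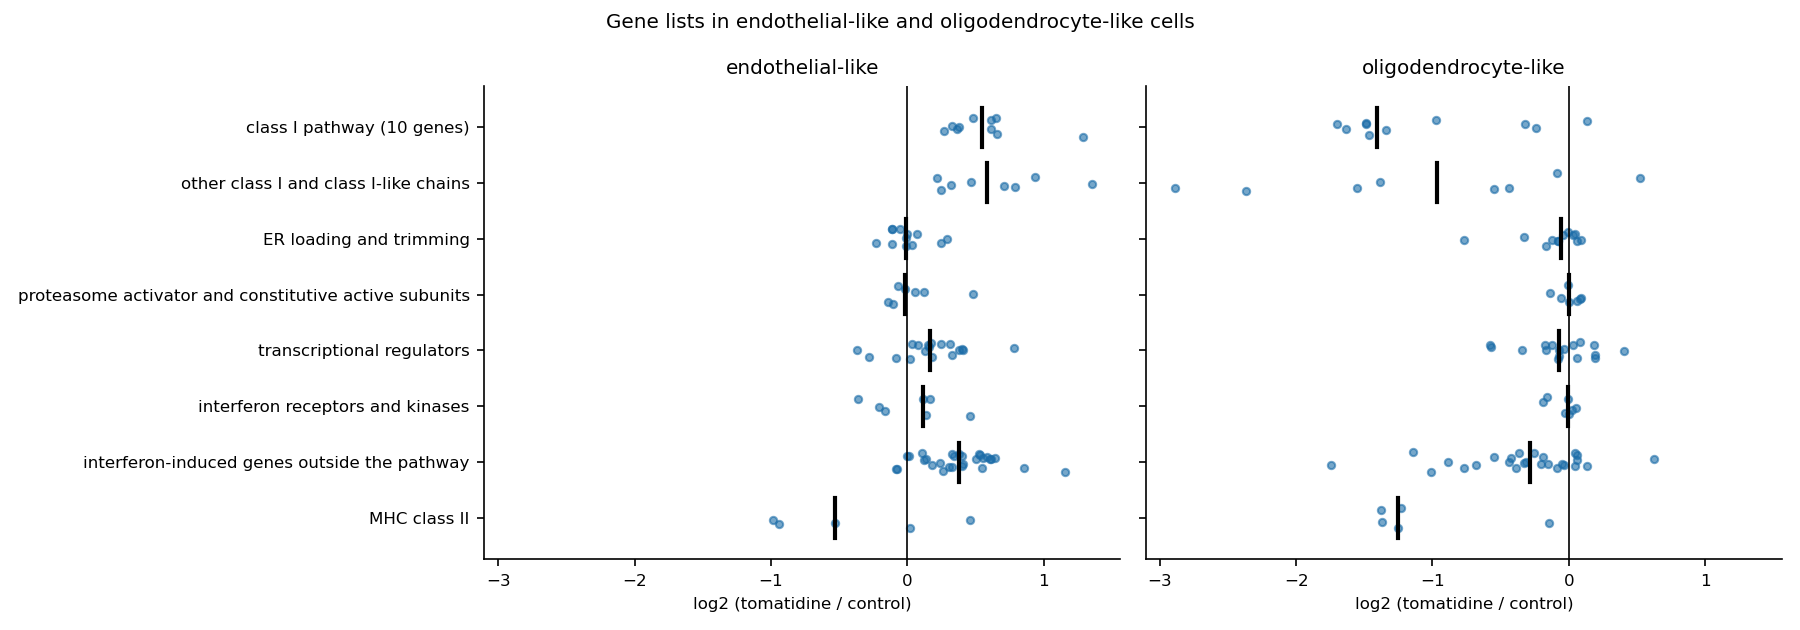
Log2 ratios of tomatidine over control for the genes of 8 lists with at least 20 UMIs in endothelial-like (left) and oligodendrocyte-like cells (right). Dots are genes, jittered vertically, and black bars are list medians. The medians of the 10 pathway genes are 0.55 and −1.40, while those of the loading and constitutive proteasome lists lie within 0.1 of 0 in both classes.

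Of 8 listed receptors that read class I, 3 had at least 20 UMIs in microglia-like cells and none passed 1.3-fold. Pirb, an inhibitory receptor for class I, stood at 50.5 and 62.6 CPM (0.31, −0.06 to 0.67).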

How the data were processed

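The authors fixed and dissociated flash-frozen hippocampus, built probe-based libraries and counted UMIs against mm10 with Cell Ranger (version 8.0.0 in the submitters' processing notes, 7.1.0 in the matrix headers). The deposited files hold raw UMI counts per gene and cell, per the file headers. From these counts, cells with at least 500 UMIs, over 250 genes, log10 genes per log10 UMI over 0.8 and under 20% mitochondrial UMIs passed (15423 control and 14798 tomatidine cells). Scrublet (scanpy 1.11.5) called 0 and 2 doublets, and these calls were not used. The 2% of cells with the highest Scrublet scores were removed instead, which left 29617 of 31097 cells. Library totals were 279525565 and 259059908 UMIs.

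Cells were clustered with Seurat 5.3.0 (2000 variable genes, 30 components, RPCA integration of the libraries, resolution 0.8), leaving out 134 genes of the pathway and its lists. This gave 35 clusters, 8 of which stayed unnamed. A cluster took a class name where at least 3 markers of that class were among its 10 leading genes or, failing that, at least 2-fold up and more numerous than those of any other class, and this rule was written and revised after the clusters were seen. UMIs were summed per class and library and divided by all UMIs of the class. Ratios (Python 3.11.15, scipy 1.17.1) carry exact conditional binomial intervals, sums exact Poisson and shares Clopper-Pearson ones, and all cover counting error only. Classes with at least 50 cells in each library were compared, and genes with at least 20 UMIs over both libraries counted. In counts simulated from endothelial-like cells (12567 genes, 200 changed 2-fold), 97.5% of the intervals of changed genes covered the true ratio. These counts were drawn from the model the intervals assume, so the coverage checks the calculation and not the clustering of UMIs in cells. Named were all 10 genes, the genes with the highest and lowest ratio of a list among those with at least 100 UMIs, and the 5 nearest profiles. The genes and lists were chosen with earlier results of these data known. Igtp and the threshold of 10 class I UMIs were chosen after their values were seen. Alternatives changed the scaling, the weighting, filter and classing of cells, the clustering and the count minimum. Vessel types were assigned by the most abundant of 3 lists of 6 markers.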

Additional observations from a re-analysis of the deposited data

Results flagged for a closer look

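For 6 of the 10 genes, endothelial-like and oligodendrocyte-like cells differed between the diets in opposite directions, past 1.3-fold in each and with intervals excluding 0. Of all genes, 10.3% were past 1.3-fold higher in endothelial-like cells and 3.31% past it lower in oligodendrocyte-like cells. The share of all genes with both was not computed. The log2 ratios of tomatidine over control were 0.65 and −1.70 for H2-K1, 0.66 and −1.64 for H2-D1, 0.48 and −1.49 for Tap1, 0.62 and −0.97 for Psmb8, 0.62 and −1.49 for Psmb9 and 1.29 and −1.34 for Nlrc5. With cells classed one by one by their markers, Tap1 was at 0.28 in endothelial-like cells, under 1.3-fold. In the main classes, with ratios past 1.3-fold and intervals excluding 0, other classes also stood apart from endothelial-like cells. In border macrophage-like cells the ratio was −0.86 for H2-K1, −0.44 for H2-D1 and −0.63 for Psmb8. Among the thalamic or other subcortical neuron-like cells it was −0.91 for H2-K1, −0.61 for Psmb8 and −0.76 for Psmb9. H2-D1 stood at −0.90 in interneuron-like and −0.46 in ependymal-like cells, and Psmb8 at −0.39 in microglia-like cells. Psmb9 had its highest ratio in interneuron-like cells, 1.13 on 11 control and 22 tomatidine UMIs. The difference between the classes was not tested, since each diet was 1 library.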

How the results depend on the processing

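The ratios of single genes were recomputed 1029 times under alternative settings. Of these, 923 stayed inside the counting interval of the reported value, 97 moved outside it, and 9 changed the sign of a ratio past 1.3-fold. Ratios under 1.3-fold changed sign in 85 further cases, 53 of them inside the interval and 32 outside it, and none of the 94 was in endothelial-like or oligodendrocyte-like cells. In endothelial-like cells all 10 genes stayed higher under 11 alternatives, with log2 ratios of 0.57 to 0.89 for H2-K1 and 1.03 to 1.94 for Nlrc5, and the count past 1.3-fold ran from 6 to 9. In oligodendrocyte-like cells all 10 kept their direction under 12 alternatives, with −1.77 to −1.27 for H2-K1 and −1.54 to −1.07 for B2m, and the count ran from 6 to 8. At resolution 1.5 the endothelial-like values equalled the reported ones, so that alternative tested nothing there. In both classes the alternative scalings shifted all genes alike, by less than the smallest ratio, and could not change a direction. Capillary cells alone, each large oligodendrocyte-like cluster alone and the ratio of a single gene relative to the median gene were alternatives chosen after seeing the data.

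Among ratios past 1.3-fold, the direction changed for H2-D1 in border macrophage-like (0.0198) and interneuron-like cells (0.35), Nlrc5 in interneuron-like (0.95) and oligodendrocyte precursor-like (−0.11) and Psmb10 in the thalamic or other subcortical neuron-like cells (−0.29) with both sets of thresholds. It changed for Tap2 in border macrophage-like (0.0706) and Psmb8 in oligodendrocyte precursor-like cells (0.34) with cells weighted equally, and for Nlrc5 in interneuron-like (0.82) and Psmb8 in oligodendrocyte precursor-like cells (0.0752) with the marker gate. Among ratios under 1.3-fold, both sets of thresholds moved Tap2 (−2.09) and Tap1 (−0.77) in the thalamic or other subcortical neuron-like and Tapbp in border macrophage-like cells (0.29) across 0. The cause was not tested.

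The number of genes past 1.3-fold moved by over 1.5 times in 62 of 252 cases. In astrocyte-like cells the higher count was 0 under 7 alternatives and the lower count 2 or 3 under 2. In border macrophage-like cells the higher count was 1 or 2 and the lower 2 or 3. In ependymal-like cells the lower count was 2 or 0. In excitatory neuron-like cells the higher count was 1 or 2. In interneuron-like cells the higher count was 0 or 2 and the lower 0, 1 or 4. In fibroblast-like cells the higher count was 1, and in microglia-like cells the lower was 0, 2, 3, 4 or 7. In oligodendrocyte precursor-like cells the higher count was 0 or 2 and the lower 0 or 3. In oligodendrocyte-like cells the higher count was 1 with the marker gate. Among the thalamic or other subcortical neuron-like cells the higher count was 0 or 2 and the lower 7. Border macrophage-like cells at resolution 0.3 and with the marker gate, ependymal-like cells in each re-clustering and with the marker gate, and thalamic or other subcortical neuron-like cells with the marker gate had too few cells and were not run. No paired analysis was possible because each diet had 1 library. Pooling left the spread between animals unmeasured, and UMI sums under 100 gave wide intervals.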

Other observations

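Some classes were too small in 1 library to be compared. T or NK cell-like cells, which had the highest levels of all 10 genes, made up 0.423% (0.326 to 0.540) of kept control cells and 0.234% (0.162 to 0.328) of kept tomatidine cells. Choroid plexus-like cells numbered 341 in control and 32 in tomatidine, and mural-like cells 38 and 39. In the small mural-like class H2-K1 had 9 and 23 UMIs.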
